A study of Mus musculus with 4 samples.

Results

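Interferon-stimulated genes are the genes that cells switch on when interferon reaches them. Here 40 of them were followed one by one in thymic epithelial cells of the mouse (TECs). They were taken by their symbols from a list and not by their values, and 39 were matched to a symbol among the 31017 in the deposited gene lists. No symbol matched Mx2, which is not analysed here. Single-cell RNA libraries of sorted EpCAM+CD45-TER119- thymus cells covered 4 conditions, 1 library each, from mice of 6 weeks. The wild-type mice were purchased C57BL/6 females. The Cd40-/- mice were on a C57BL/6 background, and their sex is not given. WT-Control came from wild-type mice given a control antibody, WT-RANKL-Ab from wild-type mice given an antibody that neutralises the cytokine RANKL, Cd40-/- Control from mice without the receptor CD40 given the control antibody, and Cd40-/- RANKL-Ab from Cd40-/- mice given the RANKL antibody. Each mouse had 1 subcutaneous injection of 5 mg per kg at 4 weeks and was killed 2 weeks later, and the thymi of 3 mice were pooled per library. The Cd40-/- mice lacked CD40 from conception, whereas RANKL was neutralised only from 4 weeks on. With 1 library per condition there is no replicate and no test between conditions, so all ratios compare libraries. The intervals in parentheses are exact 95% intervals for the counting of molecules only.

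Type I and type III interferons bind receptors that act through the kinases JAK1 and TYK2, and these phosphorylate STAT proteins. Type I and type III interferons lead to a complex with STAT2 and IRF9 that binds a DNA element called the ISRE, whereas interferon gamma acts mainly through the GAS element. The genes switched on in this way encode sensors of viral RNA, enzymes that block translation or degrade RNA, membrane proteins that hold viruses back, and regulators that raise or damp the response. In the thymus, interferons are made without infection, and medullary TECs (mTECs) are one of their sources. RANK and CD40 are receptors of the tumour necrosis factor receptor family through which mTECs are instructed to mature.

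After filtering on genes and mitochondrial reads, 10218, 7164, 8591 and 2082 cells were kept in the libraries, the wild-type pair first (WT-Control, then WT-RANKL-Ab) and the Cd40-/- pair after it (Control, then RANKL-Ab), with 19153685 to 95277834 UMIs (counted molecules) per library and a median of 6086 to 7622 UMIs per cell. The libraries of the Cd40-/- mice had 210 cell barcodes in common, 10.0% of those of Cd40-/- RANKL-Ab, against 18 to 125 for the other pairs of libraries. Of the 205 kept in each of these libraries, the median depth was 24073 UMIs in Cd40-/- RANKL-Ab and 723 in Cd40-/- Control, and 32 fell in the same class. The medians of Cd40-/- RANKL-Ab are therefore also given without shared barcodes, and so is that of Cd40-/- Control in Ccl21a-high cells. For the other classes of Cd40-/- Control the values without shared barcodes are not printed. Cells were put into classes by fixed markers that contain no interferon-stimulated gene. The Ccl21a-high mTEC-like class, marked by the chemokine gene Ccl21a and by Krt5, Krt14, Itgb4 and Itga6, had 3064, 3233, 1817 and 989 cells in the 4 libraries in the order above. Aire+ mTEC-like cells, which carry the regulator of tissue antigens Aire, numbered 2751, 230, 1601 and 4. The cTEC-like class, marked by the cortical genes Psmb11 and Prss16 and by Ccl25, Tbata and Cxcl12, had 93, 377, 536 and 266 cells. The progenitor-like class, marked by the sum of Pdpn, Dcn, Ackr4, Serpinf1, Fst and Fmod, had 116, 409, 208 and 183. The tuft-like class, with Trpm5 among its markers, had 497, 611, 256 and 62 and the cycling class had 555, 125, 580 and 9. A comparison was made only where each library had at least 50 cells of the class, which left out the Aire+ and cycling cells of Cd40-/- RANKL-Ab. The classes are ranges of a marker score, and up to 25.7% of the progenitor-like and 6.11% of the Ccl21a-high cells of a library lay within 25% above the threshold. Cd40 itself stood at 32.9, 23.6, 3.35 and 2.43 CPM (UMIs per 1000000 UMIs of the class) in Ccl21a-high cells and at 189, 142 and 6.75 CPM in the Aire+ cells of the first 3 libraries, so it was lower in the Cd40-/- libraries without being at 0.

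Markers of other cells were low in Ccl21a-high cells. The summed thymocyte markers ranged from 28.9 to 58.0 CPM over the 4 libraries, and the endothelial ones from 1.31 to 5.59 CPM. The myeloid markers stood at 33.0, 8.59, 34.3 and 6.32 CPM, with the defining gene Ptprc at 0.364, 0.219, 0.265 and 0.486 CPM. The fibroblast markers stood at 7.01, 4.69, 31.3 and 26.6 CPM. Markers of TECs differed as well: the progenitor markers within the Ccl21a-high class stood at 415, 485, 716 and 1480 CPM and Ccl21a itself at 26950, 28040, 21610 and 39180 CPM. The part of these differences in the results was not tested.

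All 39 members are protein-coding genes of GENCODE vM21 on the mouse build GRCm38, the sequence known as mm10, and several stand next to each other. Ifit2, Ifit3, Ifit3b and Ifit1 follow each other on chromosome 19 from 34550694 to 34650009. Oasl2, Oasl1, Oas2, Oas3 and Oas1a lie on chromosome 5, Rsad2 and Cmpk2 are neighbours on chromosome 12, and so are Ifi27 (103434211 to 103440239) and Ifi27l2a (103442167 to 103443680). RefSeq promoter windows of GRCm38.p6, 250 bases before to 50 after the start of the gene, were at hand for 29 members. An ISRE-like match, the letters GAAA, any 2 bases and GAAA again on either strand, was found in 14 of them, and 7 had 2 or more matches, which can overlap. Over all 27025 genes with a window, 3.99% held such a match. A GAS-like match, TTC and GAA with any 3 bases between them, was found in 7 members and in 9.55% of all genes. A match describes the letters of the window and is not a measured binding site. The windows of 4 members are shown, as examples of members that hold a match and were at least 2-fold lower in the Ccl21a-high cells of Cd40-/- RANKL-Ab, with the ISRE-like letters in capitals. They lie at chr4:156200769-156201068 on the minus strand, chr19:34640639-34640938 on the plus strand, chr8:71537423-71537722 on the minus strand and chr12:26456403-26456702 on the minus strand, and are written along the strand of the gene. In Isg15 the 3 matches overlap and start 78, 72 and 66 bases before the start, in Ifit1 they start 104 and 85 bases before it, in Bst2 130 and 124, and in Rsad2 120.
Isg15: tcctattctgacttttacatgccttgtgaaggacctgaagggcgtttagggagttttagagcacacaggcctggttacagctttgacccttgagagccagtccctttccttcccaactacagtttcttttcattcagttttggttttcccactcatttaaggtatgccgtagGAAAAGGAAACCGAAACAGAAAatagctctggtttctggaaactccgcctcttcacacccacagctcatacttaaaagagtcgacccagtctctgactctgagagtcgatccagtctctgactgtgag
Ifit1: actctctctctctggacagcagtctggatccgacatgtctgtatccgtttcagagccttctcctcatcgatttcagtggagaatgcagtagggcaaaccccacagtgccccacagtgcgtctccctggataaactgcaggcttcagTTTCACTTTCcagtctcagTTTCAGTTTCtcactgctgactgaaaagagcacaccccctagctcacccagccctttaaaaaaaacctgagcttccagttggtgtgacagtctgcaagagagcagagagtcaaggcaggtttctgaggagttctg
Bst2: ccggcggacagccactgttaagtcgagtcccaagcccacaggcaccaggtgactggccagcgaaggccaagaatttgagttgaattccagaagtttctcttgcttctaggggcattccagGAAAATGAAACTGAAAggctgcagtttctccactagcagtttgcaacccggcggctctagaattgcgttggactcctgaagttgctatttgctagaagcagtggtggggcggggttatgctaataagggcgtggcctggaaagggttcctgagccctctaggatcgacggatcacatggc
Rsad2: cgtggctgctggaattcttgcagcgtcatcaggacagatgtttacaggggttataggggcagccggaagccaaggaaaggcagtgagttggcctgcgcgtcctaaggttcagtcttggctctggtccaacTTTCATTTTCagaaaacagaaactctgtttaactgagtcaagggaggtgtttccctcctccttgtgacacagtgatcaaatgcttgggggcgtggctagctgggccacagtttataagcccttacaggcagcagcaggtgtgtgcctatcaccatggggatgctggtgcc

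In Ccl21a-high cells the median log2 ratio of Cd40-/- RANKL-Ab to WT-Control was -2.05 for the 14 members with an ISRE-like match and -1.81 for the 15 without one, and it was -2.41 for the 10 members whose window was not at hand. The ranges of these groups overlapped. No match was found in the window of Irf7, the member with the lowest ratio, which says only that these letters are not in it.

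The steady state was read from the cell classes of WT-Control. The members were highest in Ccl21a-high and progenitor-like cells and lowest in Aire+ and cycling cells. Summed over all 39, they made up 21920 CPM (21860 to 21980) of the RNA of Ccl21a-high cells, 20200 CPM (19890 to 20510) in progenitor-like cells, 8588 CPM (8406 to 8773) in cTEC-like cells, 6406 CPM (6329 to 6484) in tuft-like cells, 4972 CPM (4928 to 5016) in cycling cells and 3573 CPM (3553 to 3593) in Aire+ cells. Cells gated on the other mimetic programmes (microfold, neuroendocrine, ciliated, keratinocyte and enterohepatic markers) stood at 6040 CPM (5984 to 6096). No neighbours in this order had overlapping counting intervals, but its middle turned with the processing: with the class set by the highest scaled marker score, cTEC-like cells (5768 CPM) lay below tuft-like cells (7490 CPM), and with each cell weighted equally tuft-like cells (5331 CPM) lay below cycling cells (5736 CPM). The Ccl21a-high and progenitor-like sums were close and became 12260 CPM (12220 to 12310) and 12190 CPM (11950 to 12430) without Ifitm3, with overlapping intervals. Ifitm3, a membrane protein that hinders virus entry, and Ifi27l2a, a small mitochondrial protein, made up 68.8% of the sum in Ccl21a-high and 68.8% in progenitor-like cells, but 35.6% in cTEC-like cells. Without both genes the order was Ccl21a-high, progenitor-like, cTEC-like, tuft-like, Aire+ and cycling, at 6845, 6307, 5533, 3082, 1688 and 1500 CPM.

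Gene by gene, the 6 named classes were compared, and the other mimetic cells were left out of the count. Of 39 members, 26 were highest in Ccl21a-high cells, 6 in progenitor-like, 4 in cTEC-like, 2 in tuft-like, 1 in Aire+ and 0 in cycling cells. The lowest class was Aire+ for 18 and cycling for 12. Against Ccl21a-high cells, 33 of 39 members were at least 2-fold lower in Aire+ cells and 1 higher, beside 14.6% and 38.6% of all genes measured. In cTEC-like cells 26 were lower and 2 higher (all genes 16.5% and 17.0%), in tuft-like cells 22 and 2 (15.0% and 22.5%), and in cycling cells 35 and 0 (19.5% and 17.1%). Progenitor-like cells were nearest to Ccl21a-high cells, with 6 lower and 2 higher (11.2% and 15.3%). The median log2 ratio to Ccl21a-high cells was -2.18 in Aire+, -2.21 in cycling, -1.43 in cTEC-like, -1.22 in tuft-like and -0.45 in progenitor-like cells, and over all genes measured it lay between -0.072 and 0.24.

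The largest drop from Ccl21a-high to Aire+ cells was that of Ifit3, an antiviral protein with tetratricopeptide repeats, at 376 against 16.6 CPM, a log2 ratio of -4.50 (-4.62 to -4.38). Rtp4, a chaperone of membrane receptors that is induced by interferon, went from 373 to 17.6 CPM, and Ifi44 from 167 to 9.87 CPM. Isg15, a ubiquitin-like protein that is joined to other proteins, stood at 1362 CPM in Ccl21a-high and 1497 in progenitor-like cells, but at 289 in cTEC-like, 360.1 in tuft-like and 154 in Aire+ cells. Not all members followed this order. Isg20, an exonuclease that degrades RNA, was highest in cTEC-like cells by far: it stood at 2060 CPM in cTEC-like cells, 82.5 in progenitor-like, 64.7 in tuft-like, 37.6 in Aire+, 17.5 in Ccl21a-high and 13.3 in cycling cells. Ifi27, a small mitochondrial protein, was also highest in cTEC-like cells at 767 CPM, followed by progenitor-like (538) and tuft-like cells (419.5), and stood at 139 in Ccl21a-high cells. Usp18, the protease that takes ISG15 off its targets and damps receptor signalling, varied least, from 144 CPM in cTEC-like to 261 in Ccl21a-high cells, and Aire+ cells had 226. Oasl1, which restrains the translation of Irf7, was highest of the 6 classes in Aire+ cells at 33.0 CPM, against 24.3 in Ccl21a-high and 2.43 in progenitor-like cells, but the other mimetic cells had 41.2 CPM (36.7 to 46.1). Irf7, the factor that amplifies type I interferon production, was nearly as high in tuft-like (283 CPM) as in Ccl21a-high cells (364 CPM), and lowest in cTEC-like cells (19.3 CPM). These genes were picked for their order after their values were seen.

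**Figure D1:**
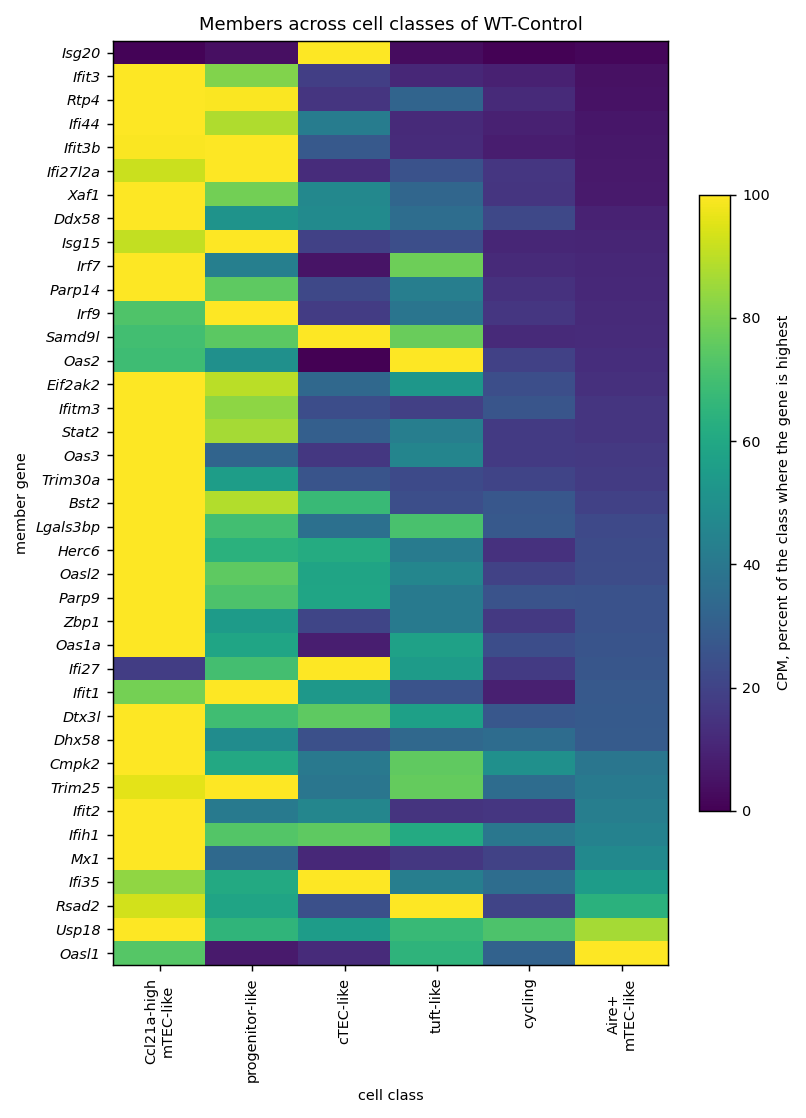
Levels of the 39 members (rows) in 6 cell classes of WT-Control (columns), as a percent of the CPM in the class where the gene is highest (colour). Ccl21a-high and progenitor-like cells are brightest for most genes, with Isg20 and Ifi27 brightest in cTEC-like and Oasl1 in Aire+ cells. The other mimetic cells are not drawn.

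Free RNA from burst cells can carry molecules of one class into another. Ccl11, a gene that no gate used, was highest in Ccl21a-high cells, while Mgp, also used by no gate, was higher in progenitor-like cells (131% of the Ccl21a-high level). The genes Mgp and Ccl11 stood in the Aire+ cells of WT-Control at 3.70% and 3.49% of their level in Ccl21a-high cells. In the same cells Isg15 stood at 11.3%, Ifi27l2a at 7.60% and Bst2 at 19.3%, above those values. Ifit3, Rtp4 and Ifi44, the members with the largest drops, stood closer to Mgp and Ccl11, at fractions of 0.0442, 0.0471 and 0.0591 of their Ccl21a-high level. How much of their RNA in Aire+ cells was carried over was not tested. In cTEC-like cells Ccl11 stood at 0.520% and Mgp at 6.75%, beside 21.2% for Isg15 and 5.31% for Irf7, so Irf7 in cTEC-like cells lay between these 2 genes. In tuft-like cells Ccl11 stood at 18.7% and Mgp at 9.06%, not far below Bst2 (24.1%) and Isg15 (26.4%) and far below Irf7 (77.8%). How much of the tuft-like Bst2 and Isg15 was carried over was not tested.

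Across conditions, the members were followed first in Ccl21a-high cells, where each had at least 110 UMIs in WT-Control and all passed the minimum of 20 UMIs in every comparison. RANKL blockade alone went with lower levels of most members, CD40 loss alone with lower levels of some and higher levels of others, and both together with much lower levels of nearly all. In WT-RANKL-Ab, 11 of 39 measured members were at least 2-fold lower and 1 at least 2-fold higher, where 5.74% and 3.53% of the 14102 genes measured were. In Cd40-/- Control, 1 of 39 measured members were at least 2-fold lower and 0 at least 2-fold higher, where 4.84% and 6.07% of the 13799 genes measured were. In Cd40-/- RANKL-Ab, 31 of 39 measured members were at least 2-fold lower and 1 at least 2-fold higher, where 9.53% and 7.13% of the 13540 genes measured were. The median log2 ratio of the members to WT-Control was -0.69 for WT-RANKL-Ab, 0.021 for Cd40-/- Control, but -2.10 for Cd40-/- RANKL-Ab, whereas over all genes measured it was 0.14, 0.14 and 0.11. Relative to the median gene the members thus stood 0.83, 0.12 and 2.20 lower on the log2 scale. These comparisons share WT-Control. A comparison within Cd40-/- mice that does not use WT-Control was Cd40-/- RANKL-Ab against Cd40-/- Control, again 1 library each. There 35 of 39 measured members were at least 2-fold lower and 1 at least 2-fold higher, where 6.98% and 4.14% of the 12814 genes measured were. The median log2 ratio was -1.87 beside -0.049 over all genes.

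The interval of the Cd40-/- RANKL-Ab library lay below the intervals of the other 3 libraries for 37 of 39 members, and the exceptions were Isg20 and Ifi27. In WT-RANKL-Ab the interval lay below that of WT-Control for 33 members, above it for 2 (Irf9 and Ifi27), and overlapped it for 4. In Cd40-/- Control it lay below for 16, above for 16 and overlapped for 7. WT-Control held the highest level of 19 members and Cd40-/- Control that of 18. Small ratios depend on the scaling: TMM factors moved the median of all genes from 0.14 to -0.028 in Cd40-/- Control and from 0.14 to 0.006 in WT-RANKL-Ab, and the members' median in Cd40-/- Control to -0.15, so a member near 0.14 in Cd40-/- Control differed no more than a typical gene. Without shared barcodes the medians were -0.69, 0.020 and -2.15, and -1.95 for Cd40-/- RANKL-Ab against Cd40-/- Control. In Cd40-/- Control, 17 members lay above the median ratio of all genes and 22 below it, and with TMM factors 5 members were at least 2-fold lower.

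**Figure D2:**
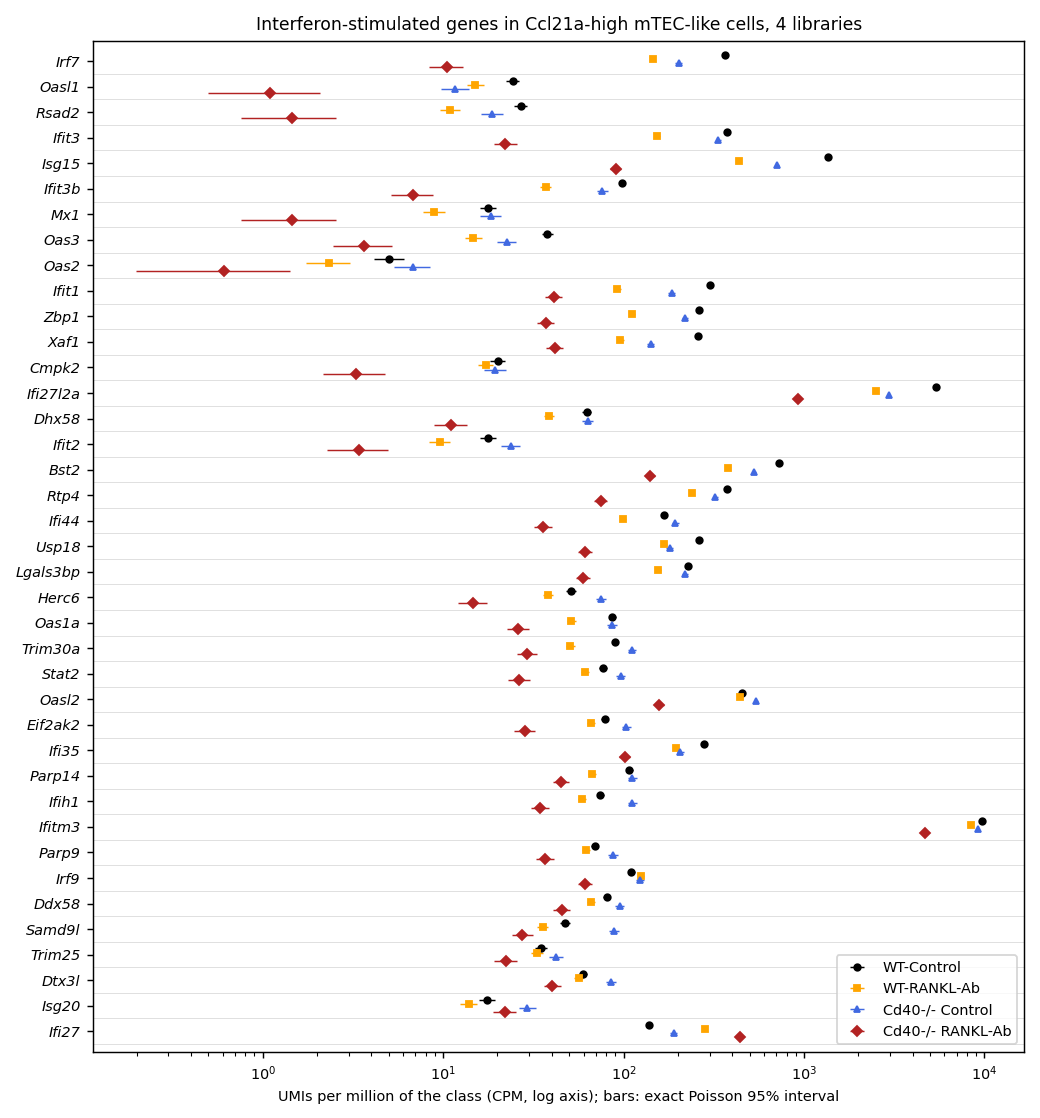
Level of each member in Ccl21a-high cells (log axis, CPM) in the 4 libraries (colours and symbols), with exact Poisson 95% intervals as bars, ordered by the ratio of Cd40-/- RANKL-Ab to WT-Control. The Cd40-/- RANKL-Ab points lie furthest left for 37 of 39 members, while Ifi27 in the bottom row runs the other way.

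Regulators of the response differed among themselves. Irf7 had the lowest ratio of all members in Cd40-/- RANKL-Ab, with 364 CPM in WT-Control against 145 in WT-RANKL-Ab, with 202 in Cd40-/- Control against 10.5 in Cd40-/- RANKL-Ab. Its log2 ratios to WT-Control were -1.33, -0.85 and -5.12 (-5.45 to -4.82), so the level was 34.8-fold lower in Cd40-/- RANKL-Ab. Irf9, the DNA-binding part of the ISRE complex, stood at 110.5 CPM in WT-Control against 126 in WT-RANKL-Ab, with 123 in Cd40-/- Control against 61.4 in Cd40-/- RANKL-Ab, slightly higher in either single perturbation (0.19 and 0.16, the latter -0.017 with TMM factors) and lower only in the double one (-0.85, interval -0.99 to -0.71). Stat2, its partner, stood at 77.1 CPM in WT-Control against 61.0 in WT-RANKL-Ab, with 96.2 in Cd40-/- Control against 26.4 in Cd40-/- RANKL-Ab (log2 ratios -0.34, 0.32 and -1.55). Usp18 stood at 261 CPM in WT-Control against 168 in WT-RANKL-Ab, with 180.4 in Cd40-/- Control against 61.0 in Cd40-/- RANKL-Ab, lower in each perturbed library, with log2 ratios of -0.63, -0.53 and -2.10. The gene for the amplifier Irf7 was thus 34.8-fold lower where those for Irf9 and Stat2 were 1.80-fold and 2.92-fold lower.

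The sensors of viral nucleic acid had ratios in Cd40-/- RANKL-Ab nearer to that of Stat2 than to that of Irf7. Ifih1 (MDA5, a sensor of long double-stranded RNA) stood at 74.5 CPM in WT-Control against 58.8 in WT-RANKL-Ab, with 112 in Cd40-/- Control against 34.4 in Cd40-/- RANKL-Ab, highest without CD40 and lowest in the double perturbation, with log2 ratios of -0.34, 0.59 and -1.11. Ddx58 (RIG-I, a sensor of short RNA with a triphosphate end) stood at 80.4 CPM in WT-Control against 65.6 in WT-RANKL-Ab, with 95.1 in Cd40-/- Control against 45.4 in Cd40-/- RANKL-Ab and its lowest log2 ratio was -0.83 (-0.99 to -0.67), less than 2-fold. Dhx58 (LGP2, which modulates both sensors) stood at 62.3 CPM in WT-Control against 38.6 in WT-RANKL-Ab, with 63.2 in Cd40-/- Control against 11.1 in Cd40-/- RANKL-Ab, log2 ratio 0.021 (-0.11 to 0.15) in Cd40-/- Control and 5.63-fold lower in Cd40-/- RANKL-Ab. Zbp1, a sensor of Z-form nucleic acid that can start necroptosis, stood at 262 CPM in WT-Control against 112 in WT-RANKL-Ab, with 219 in Cd40-/- Control against 37.0 in Cd40-/- RANKL-Ab. It was the only sensor at least 2-fold lower in WT-RANKL-Ab (-1.23, interval -1.29 to -1.16), and its log2 ratio in Cd40-/- RANKL-Ab was -2.82 (-2.99 to -2.66).

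Among the genes of ISG15 conjugation and ubiquitin ligases, Isg15 was lower in every perturbed library: 1362 CPM in WT-Control against 438 in WT-RANKL-Ab, with 709 in Cd40-/- Control against 90.3 in Cd40-/- RANKL-Ab. Its log2 ratios were -1.64 (-1.67 to -1.60), -0.94 (-0.98 to -0.91) and -3.91 (-4.02 to -3.81), with no overlap of the counting intervals of any 2 libraries. Herc6, the main ligase that attaches ISG15 in mice, stood at 51.2 CPM in WT-Control against 38.0 in WT-RANKL-Ab, with 75.0 in Cd40-/- Control against 14.6 in Cd40-/- RANKL-Ab, higher in Cd40-/- Control (0.55) and lower in Cd40-/- RANKL-Ab (-1.81, interval -2.09 to -1.54). Trim25, a ligase that activates RIG-I, stood at 34.9 CPM in WT-Control against 33.1 in WT-RANKL-Ab, with 42.2 in Cd40-/- Control against 22.2 in Cd40-/- RANKL-Ab and was less than 2-fold lower in the double perturbation (-0.65, interval -0.89 to -0.41). Trim30a, which restrains inflammatory signalling and has close copies that can share its reads, stood at 89.6 CPM in WT-Control against 50.8 in WT-RANKL-Ab, with 112 in Cd40-/- Control against 29.2 in Cd40-/- RANKL-Ab (log2 ratios -0.82, 0.32 and -1.62). Dtx3l, a ligase that works with PARP9, stood at 59.5 CPM in WT-Control against 56.2 in WT-RANKL-Ab, with 85.3 in Cd40-/- Control against 40.2 in Cd40-/- RANKL-Ab, log2 ratio -0.081 (-0.19 to 0.031) in WT-RANKL-Ab and -0.56 (-0.74 to -0.39) in Cd40-/- RANKL-Ab. Parp9 stood at 69.0 CPM in WT-Control against 61.9 in WT-RANKL-Ab, with 87.8 in Cd40-/- Control against 36.8 in Cd40-/- RANKL-Ab. Parp14, another ADP-ribosyltransferase of the same cluster on chromosome 16, stood at 108 CPM in WT-Control against 66.8 in WT-RANKL-Ab, with 112 in Cd40-/- Control against 45.2 in Cd40-/- RANKL-Ab. The log2 ratios in Cd40-/- RANKL-Ab were -0.91 for Parp9 and -1.25 for Parp14.

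The 2'-5' oligoadenylate synthetase family, named after enzymes whose products activate RNase L, was lower throughout in Cd40-/- RANKL-Ab. Oas1a, which has near copies in the mouse that can share its reads, stood at 86.7 CPM in WT-Control against 51.2 in WT-RANKL-Ab, with 86.7 in Cd40-/- Control against 26.0 in Cd40-/- RANKL-Ab (-1.74, interval -1.95 to -1.53 in the last). Oas2 was sparse, at 5.01 CPM in WT-Control against 2.32 in WT-RANKL-Ab, with 6.80 in Cd40-/- Control against 0.608 in Cd40-/- RANKL-Ab, with 110 UMIs in WT-Control and 5 in Cd40-/- RANKL-Ab (-3.04, interval -4.69 to -1.78). Oas3 stood at 37.8 CPM in WT-Control against 14.7 in WT-RANKL-Ab, with 22.5 in Cd40-/- Control against 3.65 in Cd40-/- RANKL-Ab, lower in each perturbed library, with log2 ratios of -1.36, -0.75 and -3.37. Oasl1, the only member 2-fold lower without CD40 alone, stood at 24.3 CPM in WT-Control against 15.1 in WT-RANKL-Ab, with 11.7 in Cd40-/- Control against 1.09 in Cd40-/- RANKL-Ab, with log2 ratios of -1.06 (-1.35 to -0.78) in Cd40-/- Control and -4.47 (-5.61 to -3.54) in Cd40-/- RANKL-Ab. Oasl2, a member with a ubiquitin-like part, went another way in the single perturbations, at 456 CPM in WT-Control against 440.2 in WT-RANKL-Ab, with 539 in Cd40-/- Control against 158 in Cd40-/- RANKL-Ab. Its log2 ratios were -0.050, 0.24 and -1.53, so the ratio was near 0 after RANKL blockade alone (interval -0.090 to -0.010) and the level 2.88-fold lower in the double perturbation.

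The IFIT genes, whose proteins bind foreign RNA, formed the family with the lowest median ratio in WT-RANKL-Ab, -1.35 over 4 genes. Ifit1 stood at 302 CPM in WT-Control against 92.2 in WT-RANKL-Ab, with 184 in Cd40-/- Control against 41.1 in Cd40-/- RANKL-Ab, and its log2 ratio of -1.71 (-1.78 to -1.64) in WT-RANKL-Ab was the lowest of all members there. Ifit2 stood at 17.7 CPM in WT-Control against 9.60 in WT-RANKL-Ab, with 23.8 in Cd40-/- Control against 3.40 in Cd40-/- RANKL-Ab, lower after RANKL blockade (-0.88) and higher without CD40 alone (0.43). Ifit3 stood at 376 CPM in WT-Control against 153 in WT-RANKL-Ab, with 334 in Cd40-/- Control against 22.1 in Cd40-/- RANKL-Ab (-4.09, interval -4.31 to -3.88 in the last). Ifit3b, a near copy of Ifit3 with which it can share reads, stood at 97.8 CPM in WT-Control against 37.0 in WT-RANKL-Ab, with 76.3 in Cd40-/- Control against 6.81 in Cd40-/- RANKL-Ab (-3.84, interval -4.25 to -3.46). After CD40 loss alone Ifit3 and Ifit3b differed little from WT-Control (-0.17 and -0.36), whereas they were 2.46-fold and 2.64-fold lower after RANKL blockade alone.

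Among the other effectors, Rsad2 (viperin, an enzyme that makes a chain-terminating nucleotide) stood at 26.9 CPM in WT-Control against 10.9 in WT-RANKL-Ab, with 18.7 in Cd40-/- Control against 1.46 in Cd40-/- RANKL-Ab, with 12 UMIs left in the last library and a log2 ratio of -4.21 (-5.17 to -3.39). Its neighbour Cmpk2, a nucleotide kinase, stood at 20.1 CPM in WT-Control against 17.2 in WT-RANKL-Ab, with 19.4 in Cd40-/- Control against 3.28 in Cd40-/- RANKL-Ab, with log2 ratios of -0.23 (-0.43 to -0.028), -0.051 (-0.29 to 0.19) and -2.62 (-3.23 to -2.06). Mx1, a GTPase that blocks viral replication and is disrupted in many laboratory strains, stood at 17.8 CPM in WT-Control against 8.90 in WT-RANKL-Ab, with 18.4 in Cd40-/- Control against 1.46 in Cd40-/- RANKL-Ab. Its log2 ratios were -0.9999, 0.045 and -3.61, just short of 2-fold after RANKL blockade, and reads can be shared with a near copy. Bst2 (tetherin, which holds budding virus at the cell surface) stood at 725 CPM in WT-Control against 380.0 in WT-RANKL-Ab, with 529 in Cd40-/- Control against 140.3 in Cd40-/- RANKL-Ab, lower in each perturbed library, with log2 ratios of -0.93, -0.45 and -2.37. Rtp4 stood at 373 CPM in WT-Control against 239.6 in WT-RANKL-Ab, with 322 in Cd40-/- Control against 74.8 in Cd40-/- RANKL-Ab (-2.32, interval -2.44 to -2.20 in the last). Ifitm3, the most abundant member, stood at 9658 CPM in WT-Control against 8435 in WT-RANKL-Ab, with 9174 in Cd40-/- Control against 4680 in Cd40-/- RANKL-Ab, with log2 ratios of -0.20 and -0.074 in the single perturbations and 2.06-fold lower in the last. Eif2ak2 (PKR, which shuts down translation) stood at 78.5 CPM in WT-Control against 66.4 in WT-RANKL-Ab, with 103 in Cd40-/- Control against 28.3 in Cd40-/- RANKL-Ab, with log2 ratios of -0.24, 0.40 and -1.47. Samd9l, a restriction factor, stood at 47.5 CPM in WT-Control against 35.7 in WT-RANKL-Ab, with 88.5 in Cd40-/- Control against 27.5 in Cd40-/- RANKL-Ab, highest without CD40 alone (0.90) and less than 2-fold lower in the double perturbation (-0.79). Isg20 was low in these cells, at 17.5 CPM in WT-Control against 13.8 in WT-RANKL-Ab, with 29.3 in Cd40-/- Control against 21.9 in Cd40-/- RANKL-Ab, and its level in Cd40-/- RANKL-Ab was not below that of WT-Control (0.32, interval 0.057 to 0.58).

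The neighbours Ifi27 and Ifi27l2a went in opposite directions. Ifi27l2a stood at 5417 CPM in WT-Control against 2505 in WT-RANKL-Ab, with 2940 in Cd40-/- Control against 923 in Cd40-/- RANKL-Ab, with log2 ratios of -1.11, -0.88 and -2.55, and its reads can be shared with the copy Ifi27l2b. Ifi27 stood at 139 CPM in WT-Control against 283 in WT-RANKL-Ab, with 189.8 in Cd40-/- Control against 444 in Cd40-/- RANKL-Ab, lowest in WT-Control and highest in the double perturbation. Its log2 ratios were 1.02 (0.96 to 1.09), 0.45 (0.37 to 0.53) and 1.67 (1.60 to 1.74), so it was 3.19-fold higher in Cd40-/- RANKL-Ab and the only member at least 2-fold higher in any comparison of this class. The ratio of Cd40-/- RANKL-Ab to Cd40-/- Control went the same way, at 1.23 (1.15 to 1.30). Xaf1, which promotes apoptosis, stood at 258 CPM in WT-Control against 95.9 in WT-RANKL-Ab, with 141 in Cd40-/- Control against 41.5 in Cd40-/- RANKL-Ab, lower in each perturbed library (-1.43, -0.87 and -2.64). Ifi35 stood at 278 CPM in WT-Control against 194 in WT-RANKL-Ab, with 207 in Cd40-/- Control against 101 in Cd40-/- RANKL-Ab. Ifi44 stood at 167 CPM in WT-Control against 99.0 in WT-RANKL-Ab, with 194 in Cd40-/- Control against 36.0 in Cd40-/- RANKL-Ab. Lgals3bp, a secreted glycoprotein that binds galectins, stood at 228 CPM in WT-Control against 156 in WT-RANKL-Ab, with 219 in Cd40-/- Control against 59.7 in Cd40-/- RANKL-Ab. The log2 ratios of these 3 genes in Cd40-/- RANKL-Ab were -1.46, -2.21 and -1.93.

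Progenitor-like cells, the class nearest to Ccl21a-high cells in the steady state, also had many members at lower levels. In WT-RANKL-Ab, 13 of 35 measured members were at least 2-fold lower and 0 at least 2-fold higher, where 2.25% and 5.01% of the 9690 genes measured were, and the members' median log2 ratio was -0.53 beside 0.13 over all genes. Among the 32 members with at least 50 UMIs in the pair, the ratios were lowest for Ifit3 (-1.94), Ifit3b (-1.88) and Isg15 (-1.81) and highest for Ifi27 (0.83), Samd9l (0.40) and Ddx58 (0.050). With CD40 loss alone, 3 of 34 measured members were at least 2-fold lower and 1 at least 2-fold higher, where 3.11% and 11.6% of the 8459 genes measured were, and the members' median log2 ratio was -0.090 beside 0.23 over all genes. Among the 32 members with at least 50 UMIs in the pair, the ratios were lowest for Ifi27l2a (-1.76), Isg15 (-1.43) and Ifit3b (-1.17) and highest for Dtx3l (0.85), Samd9l (0.68) and Eif2ak2 (0.52). In Cd40-/- RANKL-Ab, 22 of 32 measured members were at least 2-fold lower and 0 at least 2-fold higher, where 2.30% and 6.02% of the 8835 genes measured were, and the members' median log2 ratio was -1.48 beside 0.11 over all genes. Among the 30 members with at least 50 UMIs in the pair, the ratios were lowest for Ifit3b (-3.74), Ifi27l2a (-3.53) and Ifit3 (-3.34) and highest for Ifi27 (0.10), Dtx3l (-0.068) and Isg20 (-0.16). Isg15 stood at 1497, 428, 557 and 179 CPM and Ifi27l2a at 5882, 1760, 1733 and 509.9 CPM in the 4 libraries in order, highest in WT-Control and lowest in Cd40-/- RANKL-Ab. Ifi27 stood at 538, 959.9, 709.7 and 578 CPM, highest after RANKL blockade alone and near WT-Control in the double perturbation. Within Cd40-/- mice, for Cd40-/- RANKL-Ab against Cd40-/- Control, 26 of 34 measured members were at least 2-fold lower and 0 at least 2-fold higher, where 4.04% and 2.47% of the 9304 genes measured were, and the members' median log2 ratio was -1.50 beside -0.11 over all genes. Among the 31 members with at least 50 UMIs in the pair, the ratios were lowest for Ifit3 (-2.81), Ifit3b (-2.57) and Trim30a (-2.38) and highest for Ifi27 (-0.30), Trim25 (-0.53) and Isg20 (-0.61). Without shared barcodes the medians for Cd40-/- RANKL-Ab were -1.49 against WT-Control and -1.42 against Cd40-/- Control. The class held 116 cells in WT-Control and 7 members were not measured in the double comparison. With TMM factors the median in Cd40-/- Control was -0.32, with 9 members 2-fold lower, whereas it was 0.025 by the highest marker score. Fibroblast markers in this class stood at 89.8, 45.0, 24.5 and 71.3 CPM, lowest in Cd40-/- Control, and their part in the result was not tested.

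cTEC-like cells showed smaller differences. In WT-RANKL-Ab, 6 of 34 measured members were at least 2-fold lower and 1 at least 2-fold higher, where 3.54% and 5.99% of the 9782 genes measured were, and the members' median log2 ratio was -0.44 beside 0.12 over all genes. Among the 29 members with at least 50 UMIs in the pair, the ratios were lowest for Ifi27l2a (-1.79), Xaf1 (-1.59) and Isg15 (-1.16) and highest for Trim25 (1.17), Dtx3l (0.40) and Ddx58 (0.37). This result rests on 93 cells of WT-Control and on the gates: when each cell was given the class of its highest scaled marker score, the median was 0.14 and 1 member was 2-fold lower. After CD40 loss alone, 1 of 35 measured members were at least 2-fold lower and 1 at least 2-fold higher, where 3.82% and 13.3% of the 10287 genes measured were, and the members' median log2 ratio was -0.099 beside 0.24 over all genes. Among the 33 members with at least 50 UMIs in the pair, the ratios were lowest for Ifi27l2a (-1.14), Xaf1 (-0.98) and Usp18 (-0.76) and highest for Trim25 (1.29), Irf9 (0.88) and Eif2ak2 (0.81). In Cd40-/- RANKL-Ab, 14 of 33 measured members were at least 2-fold lower and 0 at least 2-fold higher, where 2.78% and 9.09% of the 9749 genes measured were, and the members' median log2 ratio was -0.64 beside 0.17 over all genes. Among the 28 members with at least 50 UMIs in the pair, the ratios were lowest for Ifi27l2a (-3.28), Rtp4 (-2.34) and Xaf1 (-1.93) and highest for Trim25 (0.69), Dtx3l (0.47) and Ddx58 (0.15). By the highest marker score, 13 members were at least 2-fold higher in Cd40-/- Control, whose median was then 0.59 instead of -0.099, and the median in Cd40-/- RANKL-Ab was -0.30. Isg20, the member that marks this class, stood at 2060, 1813, 1940 and 1596 CPM in the 4 libraries, with log2 ratios to WT-Control of -0.18, -0.087 and -0.37. Ifi27l2a stood at 754, 219, 342 and 77.6 CPM and Ifi27 at 767, 538, 661 and 340.2 CPM, each lowest in Cd40-/- RANKL-Ab. As a share of the Ccl21a-high level of the same library, Ifi27l2a stood at 13.9%, 8.74%, 11.7% and 8.41%. Mgp stood at 6.75%, 16.2%, 7.14% and 7.76%, and Ccl11 at 0.520%, 2.25%, 1.31% and 11.4%. In both libraries of the RANKL antibody Ifi27l2a thus lay between Mgp and Ccl11. How much of the cTEC-like Ifi27l2a was carried over was not tested. Ddx58 and Oasl2 differed less: Ddx58 stood at 38.6, 50.1, 56.0 and 42.9 CPM and Oasl2 at 266, 237, 344 and 247 CPM. Within Cd40-/- mice, for the RANKL antibody against the control antibody, 10 of 35 measured members were at least 2-fold lower and 0 at least 2-fold higher, where 2.66% and 1.95% of the 10815 genes measured were, and the members' median log2 ratio was -0.77 beside -0.071 over all genes. Among the 33 members with at least 50 UMIs in the pair, the ratios were lowest for Irf7 (-2.89), Ifi27l2a (-2.14) and Dhx58 (-1.94) and highest for Ifi35 (-0.088), Usp18 (-0.22) and Ifit1 (-0.24). Without shared barcodes the Cd40-/- RANKL-Ab medians were -0.74 and -0.68 against WT-Control and Cd40-/- Control. Myeloid markers in this class stood at 117, 11.5, 24.0 and 7.42 CPM, highest in WT-Control, and their part in the result was not tested.

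Tuft-like cells, which resemble the chemosensory cells of the gut, had some lower members in the single perturbations. Their share was above that of all genes, but with 10 CPM added to each level only 2 members were 2-fold lower in either. In WT-RANKL-Ab, 7 of 37 measured members were at least 2-fold lower and 0 at least 2-fold higher, where 6.51% and 3.56% of the 12319 genes measured were, and the members' median log2 ratio was -0.14 beside 0.12 over all genes. Among the 37 members with at least 50 UMIs in the pair, the ratios were lowest for Ifit3 (-1.55), Oas3 (-1.49) and Isg15 (-1.29) and highest for Isg20 (0.74), Samd9l (0.62) and Irf9 (0.55). For Cd40-/- Control, 5 of 37 measured members were at least 2-fold lower and 0 at least 2-fold higher, where 4.92% and 6.18% of the 11719 genes measured were, and the members' median log2 ratio was -0.24 beside 0.12 over all genes. Among the 36 members with at least 50 UMIs in the pair, the ratios were lowest for Oas3 (-1.96), Xaf1 (-1.39) and Oasl1 (-1.29) and highest for Samd9l (0.76), Trim30a (0.69) and Isg20 (0.68). In Cd40-/- RANKL-Ab, 21 of 37 measured members were at least 2-fold lower and 0 at least 2-fold higher, where 10.9% and 7.85% of the 11083 genes measured were, and the members' median log2 ratio was -1.41 beside 0.084 over all genes. Among the 36 members with at least 50 UMIs in the pair, the ratios were lowest for Zbp1 (-5.58), Xaf1 (-5.25) and Ifit3 (-4.24) and highest for Isg20 (0.77), Samd9l (0.21) and Dtx3l (-0.004). The last library had 62 tuft-like cells, and 1 UMI was counted there for each of Zbp1, Xaf1 and Ifit3, so the log2 ratios of Zbp1, Xaf1 and Ifit3 carry intervals of -10.89 to -3.09, -10.56 to -2.76 and -9.55 to -1.74. The class held 4140835 UMIs in WT-Control and 444732 in this library, so members could pass the minimum of 20 UMIs through WT-Control alone. Others of the 21 also rest on few UMIs there: Herc6 and Oasl1 on 1, Dhx58 and Ifi44 on 2, and Trim30a and Parp14 on 3. Oas3 had 0 and counts through the value of 3 UMIs set for it. Irf7, high in this class in the steady state, stood at 283, 194, 192 and 72.0 CPM, so it stayed above its level in the Ccl21a-high cells of the same Cd40-/- RANKL-Ab library (10.5 CPM). Isg15 stood at 360.1, 148, 158 and 40.5 CPM and Ifitm3 at 1846, 1417, 1711 and 418 CPM. Within Cd40-/- mice, for the RANKL antibody against the control antibody, 21 of 33 measured members were at least 2-fold lower and 0 at least 2-fold higher, where 10.7% and 4.72% of the 9039 genes measured were, and the members' median log2 ratio was -1.57 beside -0.034 over all genes. Among the 29 members with at least 50 UMIs in the pair, the ratios were lowest for Zbp1 (-5.20), Herc6 (-3.89) and Xaf1 (-3.86) and highest for Ifi35 (0.41), Isg20 (0.089) and Ifi27 (-0.12). Zbp1, Herc6 and Xaf1 rest on 1 UMI each in Cd40-/- RANKL-Ab there, with intervals of -10.52 to -2.70, -9.22 to -1.35 and -9.19 to -1.32. With a minimum of 100 UMIs per gene, which fewer members passed, 12 instead of 21 were 2-fold lower in this comparison. With shared barcodes left out, the medians of Cd40-/- RANKL-Ab were -1.55 against WT-Control and -1.68 against Cd40-/- Control. Myeloid markers stood at 228, 97.4, 230.4 and 78.7 CPM, higher in the libraries of the control antibody than in those of the RANKL antibody, and their part in the tuft-like ratios was not tested.

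Aire+ cells, which had the lowest levels in WT-Control, could be compared only for the single perturbations. In WT-RANKL-Ab, with 230 cells, 5 of 39 measured members were at least 2-fold lower and 2 at least 2-fold higher, where 14.8% and 9.30% of the 18231 genes measured were, and the members' median log2 ratio was 0.020 beside 0.020 over all genes. Among the 38 members with at least 50 UMIs in the pair, the ratios were lowest for Oas3 (-2.48), Ifit3b (-1.51) and Irf7 (-1.21) and highest for Dtx3l (1.35), Oasl2 (1.01) and Herc6 (0.92). Without shared barcodes this median was -0.10. The count was below the share of all genes, and Oas3 and Ifit3b rest on 2 and 4 UMIs in WT-RANKL-Ab, with intervals of -5.54 to -0.61 and -3.40 to -0.13. In Cd40-/- Control, 2 of 39 measured members were at least 2-fold lower and 0 at least 2-fold higher, where 4.49% and 5.61% of the 19227 genes measured were, and the members' median log2 ratio was 0.20 beside 0.13 over all genes. Among the 39 members with at least 50 UMIs in the pair, the ratios were lowest for Xaf1 (-1.19), Isg15 (-1.08) and Irf7 (-0.87) and highest for Eif2ak2 (0.98), Oas2 (0.96) and Ifit3 (0.81). Isg15 stood at 154, 69.7 and 72.9 CPM in WT-Control, WT-RANKL-Ab and Cd40-/- Control, Irf7 at 39.9, 17.3 and 21.8 CPM and Oasl2 at 106, 214 and 130.1 CPM. Isg15 and Irf7 were lower in either single perturbation, whereas Oasl2 was higher in WT-RANKL-Ab. The cTEC markers within this class stood at 2603, 5900 and 1893 CPM and Ccl21a at 630.0, 1284 and 485 CPM, highest in WT-RANKL-Ab, and their part in these ratios was not tested.

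**Figure D3:**
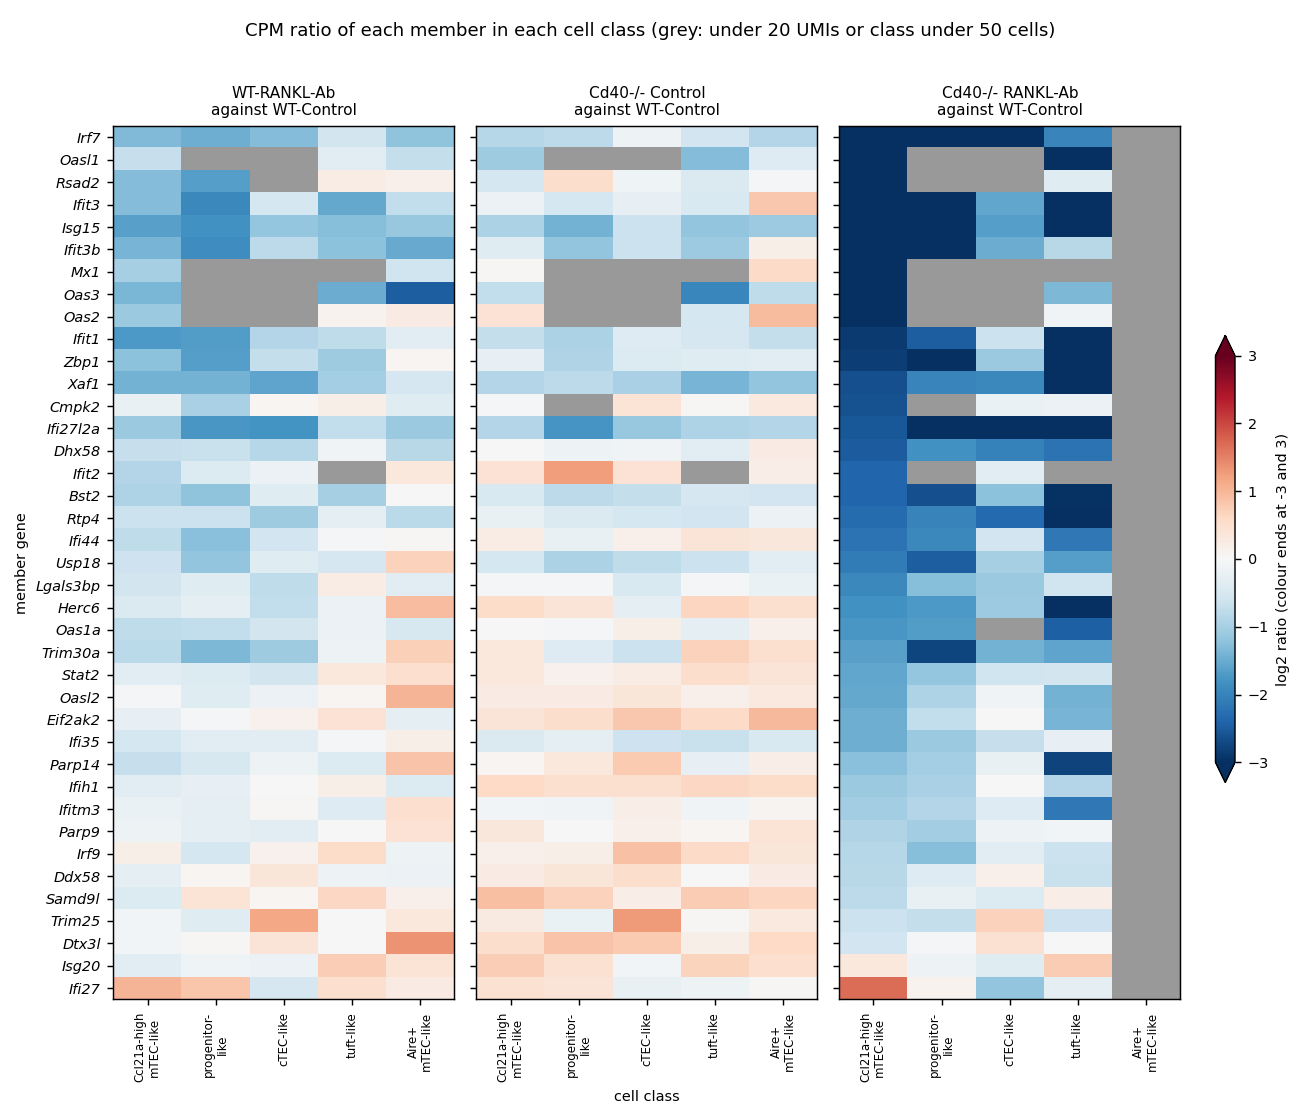
The log2 ratio to WT-Control of each member (rows) in 5 cell classes (columns) for WT-RANKL-Ab (left), Cd40-/- Control (middle) and Cd40-/- RANKL-Ab (right). Blue is lower and red higher than WT-Control, grey marks members under 20 UMIs and the class under 50 cells, and the right panel is bluest in the Ccl21a-high, progenitor-like and tuft-like columns.

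Cycling cells stood apart in direction. In WT-RANKL-Ab, 0 of 39 measured members were at least 2-fold lower and 29 at least 2-fold higher, where 10.1% and 14.7% of the 12375 genes measured were, and the members' median log2 ratio was 1.51 beside 0.17 over all genes. Among the 36 members with at least 50 UMIs in the pair, the ratios were lowest for Usp18 (-0.17), Ifi35 (0.50) and Dhx58 (0.54) and highest for Samd9l (2.47), Oas3 (2.16) and Herc6 (2.07). The class did not hold the same cells in each library: 12.2% of the cycling cells of WT-Control, 47.2% of those of WT-RANKL-Ab and 8.45% of those of Cd40-/- Control also passed the Ccl21a-high gate, and Aire stood at 407, 72.5 and 407 CPM. Between the 68 and 59 cycling cells of WT-Control and WT-RANKL-Ab that passed it, 0 of 36 measured members were at least 2-fold lower and 0 at least 2-fold higher, where 4.50% and 3.84% of the 7290 genes measured were, and the median was -0.061 beside 0.061. There Isg15 stood at 1024 and 532 CPM and Ifi27 at 116 and 226 CPM, lower and higher as in the Ccl21a-high cells outside the cycle. Not all members matched those cells. Samd9l stood at 33.9 and 63.0 CPM and Ifitm3 at 7560 and 8456 CPM, higher here but lower there. The members' median outside the cycle was -0.69, beside -0.061 here. Among the cycling cells that did not pass it, 0 of 37 measured members were at least 2-fold lower and 24 at least 2-fold higher. Of the 11966 genes measured there, 7.86% and 17.2% were, and the members' median was 1.33. The gate fixes the Ccl21a-high share of these cells at 0 but does not make the cells below it alike. Over all cycling cells, the median Ccl21a-high marker score was 8.48 in WT-Control and 89.4 in WT-RANKL-Ab, and the median Aire score 9.42 and 3.34. Whether the cells that did not pass still differed in kind, and the part of this in their median, was not tested. In Cd40-/- Control, whose cycling cells were made up more like those of WT-Control, 4 of 38 measured members were at least 2-fold lower and 2 at least 2-fold higher, where 3.11% and 5.64% of the 13781 genes measured were, and the members' median log2 ratio was 0.042 beside 0.12 over all genes. Among the 38 members with at least 50 UMIs in the pair, the ratios were lowest for Xaf1 (-1.29), Irf7 (-1.15) and Ifit1 (-1.11) and highest for Mx1 (1.10), Samd9l (1.05) and Ifit2 (0.83).

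The interferons themselves were sparse, and most of their UMIs in the 6 named classes came from Aire+ cells, which held 714 of them in WT-Control and 23 in WT-RANKL-Ab, beside 231 for Cd40-/- Control. Ifnl2 and Ifnl3, type III interferons, had 350 and 189 UMIs in the Aire+ cells of WT-Control (10.3 and 5.55 CPM), Ifng had 90 (2.64 CPM) and the type I interferon Ifnb1 had 66 (1.94 CPM). In the Aire+ cells of Cd40-/- Control, Ifnb1 stood at 2.07 CPM, Ifnl2 at 5.60 CPM and Ifng at 1.16 CPM. The 230 Aire+ cells of WT-RANKL-Ab held 17 UMIs of Ifnl2 (9.48 CPM), 3 of Ifnl3, 3 of Ifng and 0 of Ifnb1. In Ccl21a-high cells the 10 interferon genes together had 8 UMIs in WT-Control, 1 in Cd40-/- Control and 0 in each library of the RANKL antibody. Type III interferon was also counted in other classes of Cd40-/- Control: tuft-like cells had 16 UMIs of Ifnl2 (10.1 CPM, beside 5.60 CPM in the Aire+ cells of that library), and cTEC-like cells had 8 of Ifnl2 and 12 of Ifnl3. The cTEC-like cells of the other libraries had 0 interferon UMIs, and tuft-like cells had 7 in WT-Control and 0 in each library of the RANKL antibody. Aire+ cells made up 26.9, 3.21, 18.6 and 0.192% of the kept cells of the 4 libraries in order, so the share of Aire+ cells and the level of most members in Ccl21a-high cells were each lowest in Cd40-/- RANKL-Ab. The part of one in the other was not tested.

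Receptors and signalling genes were read one by one in Ccl21a-high cells. The receptor chain Ifnar1 stood at 28.6, 39.0, 38.6 and 39.9 CPM in the 4 libraries and its partner Ifnar2 at 42.9, 63.6, 58.7 and 96.0 CPM, the latter highest in Cd40-/- RANKL-Ab (1.16, interval 1.02 to 1.30). Ifnlr1, the receptor of type III interferons, stood at 5.33, 5.39, 5.92 and 5.23 CPM, with an interval of the log2 ratio that held 0 in each comparison with WT-Control. The feedback inhibitor Socs3 was higher in the double perturbation, at 123, 138, 164 and 323 CPM (1.40, interval 1.32 to 1.47), and Socs1 stood at 60.8, 46.2, 44.9 and 30.5 CPM. Other genes of the list differed less between WT-Control and Cd40-/- RANKL-Ab. Il10rb stood at 59.8 and 83.8 CPM in these libraries, Ifngr1 at 146 and 198, Ifngr2 at 115 and 104, and Jak1 at 133 and 160. Jak2 stood at 21.1 and 20.1 CPM, Tyk2 at 5.42 and 7.42, Irf3 at 64.1 and 56.4, and Irf1 at 57.95 and 61.8. Of the targets that lean to interferon gamma, 5, 1 and 10 of 16 were at least 2-fold lower when WT-RANKL-Ab, Cd40-/- Control or Cd40-/- RANKL-Ab was compared with WT-Control, beside 5.74%, 4.84% and 9.53% of all genes measured, and 0 were 2-fold higher in any of these. The 1 of 16 in Cd40-/- Control is near the share of all genes. The medians of the 16 were -0.70, -0.13 and -1.32. The chemokine gene Cxcl9 stood at 83.3, 46.6, 41.1 and 12.3 CPM and Cxcl10 at 674, 273, 470.4 and 269 CPM, the latter as low after RANKL blockade alone (-1.30) as in the double perturbation (-1.32). The GTPase gene Igtp stood at 83.8, 40.2, 75.1 and 15.9 CPM. Psmb9 and Psmb10, subunits of the immunoproteasome, stood at 286, 190.4, 265 and 175 CPM and 315, 335, 265 and 208 CPM, less than 2-fold lower in Cd40-/- RANKL-Ab. Ciita, the switch of MHC class II genes, stood at 75.0, 86.6, 87.1 and 66.6 CPM, with log2 ratios of 0.21, 0.22 and -0.17.

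The same targets were read in the other classes for Cd40-/- RANKL-Ab against WT-Control. In progenitor-like cells 6 of 13 measured targets were at least 2-fold lower and 1 at least 2-fold higher, beside 2.30% and 6.02% of all genes measured, and the median was -0.86. The higher one was Cxcl10, which stood there at 55.8, 85.0, 193 and 227 CPM in the 4 libraries and was 4.06-fold higher (2.02, interval 1.57 to 2.50), whereas it was lower in Ccl21a-high cells. In cTEC-like cells 5 of 13 measured targets were at least 2-fold lower and 0 at least 2-fold higher, beside 2.78% and 9.09% of all genes measured, and the median was -0.65. In tuft-like cells 11 of 15 measured targets were at least 2-fold lower and 0 at least 2-fold higher, beside 10.9% and 7.85% of all genes measured, and the median was -1.60.

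Cell by cell, the lower sums in Ccl21a-high cells went with a shift of the whole distribution. Each cell was thinned to 1000 UMIs, and the 38 members other than Ifitm3 were summed. The median cell had 12 UMIs of these members in WT-Control against 6 in WT-RANKL-Ab, with 8 in Cd40-/- Control against 2 in Cd40-/- RANKL-Ab, and the upper 10% of cells began at 21, 12, 15 and 6 UMIs. No cell was left out for depth, and the unthinned medians were 72, 38, 47 and 16 UMIs. At least 10 UMIs were found in 66.3%, 21.2%, 39.5% and 1.42% of cells. Ifi27l2a alone held 118995 of the 269360 UMIs of this sum in the Ccl21a-high cells of WT-Control before thinning. Without Ifitm3 and Ifi27l2a the medians were 6, 3, 5 and 1 UMIs in the same order. At least 10 UMIs were then found in 25.5%, 6.19%, 14.4% and 0.404% of cells, so the shift in Cd40-/- Control was small (6 to 5 UMIs). A tail of high cells stayed in each library, with a maximum of 47, 38, 35 and 21 UMIs. In Aire+ cells the median was 1, 2 and 1 UMIs in WT-Control, WT-RANKL-Ab and Cd40-/- Control, near the level of 1 UMI at which no change can be read, but single Aire+ cells reached 36, 19 and 38 UMIs. In tuft-like cells of WT-Control the median was 2 and the upper 10% began at 9 UMIs, against 6 and 10 UMIs in cTEC-like cells, so the members were less evenly spread over tuft-like cells (variance over mean 4.55 against 2.21).

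**Figure D4:**
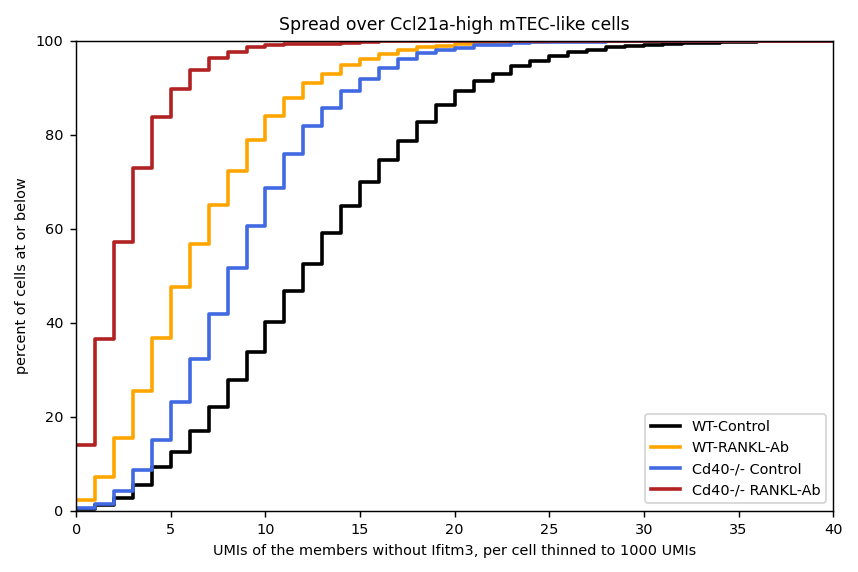
Percent of Ccl21a-high cells (vertical axis) with at most the number of UMIs on the horizontal axis for the members other than Ifitm3, each cell thinned to 1000 UMIs, 1 line per library. The lines are shifted as a whole, from medians of 12 UMIs in WT-Control to 2 in Cd40-/- RANKL-Ab.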

How the data were processed

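Sorted EpCAM+CD45-TER119- thymus cells of 4 conditions, 1 droplet single-cell RNA library each of 3 pooled thymi, were measured. The authors trimmed reads with Fastp and counted them with Cell Ranger against mm10 (version 5.1 per the labels, 5.0.1 per the matrix headers), and the deposited values are UMI counts per gene and cell. The annotation release is not given in the sources used here. Barcodes with fewer than 200 genes or over 25% mitochondrial UMIs were removed, and cells of 1000 UMIs or more were given a class by marker UMIs per 10000, with thresholds of 10 to 100 set after marker values were seen. No doublet caller was run. Cells that passed more than 1 of the cTEC, Ccl21a-high and Aire+ gates were set aside, with 1 exception. Cells with an Aire UMI that passed the Aire+ and cTEC gates, but not the Ccl21a-high or progenitor gate, were kept as Aire+. An Aire UMI was required for the Aire+ class.

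UMIs were summed per class and library and divided by the class total (CPM). Genes needed 20 UMIs in a pair of libraries and classes 50 cells. A count of 0 was set to 3 UMIs. Intervals are exact Poisson for levels and exact conditional binomial for ratios, at 95%, and cover counting error only. With 1 library per condition no test was made. The summing and ratio steps were tested on simulated data. The members and lists were chosen with earlier results of these data known, and 1 gene and the summary of the receptor and signalling list are not reported here. In Ccl21a-high cells all members with at least 100 UMIs in WT-Control are named, in the other classes the 3 lowest and 3 highest ratios among members with at least 50 UMIs. Alternatives changed the cell filters, gates, class rule, scaling, cell weights, gene minimum, added value and members that can share reads. Positions are from GENCODE vM21 and promoters from RefSeq. Tools were Python 3.11.15, numpy 2.4.6, pandas 2.3.3, scipy 1.17.1, matplotlib 3.10.9 and edgeR 4.0.16 in R 4.3.3 for TMM factors only.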

Additional observations from a re-analysis of the deposited data

Results flagged for a closer look

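Ifi27 had opposite signs in 2 cell classes of the same pair of libraries: its log2 ratio of Cd40-/- RANKL-Ab to WT-Control was 1.67 (1.60 to 1.74) in Ccl21a-high cells and -1.17 (-1.31 to -1.03) in cTEC-like cells, and the difference was not tested. The median log2 ratio of the members in WT-RANKL-Ab against WT-Control was 1.51 in cycling cells and -0.69 in Ccl21a-high cells, and this difference was not tested either. The share of cycling cells that also passed the Ccl21a-high gate differed between these libraries, 12.2% against 47.2%, and among the cycling cells that passed it the median was -0.061.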

How the results depend on the processing

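No paired analysis was possible because each condition is 1 library, and for the same reason no replicate could be left out. Of the medians recomputed under the alternatives, 250 stayed within the counting interval of the member at the median and 10 left it. That interval is wide where the member is sparse, so staying within it can hide a large shift. The median of 0.59 (from -0.099) for cTEC-like cells of Cd40-/- Control counts among those that stayed. In 22 of these 260 values, over 7 medians, the sign was the other one. Apart from values given further on, these were medians near 0: for Aire+ cells of WT-RANKL-Ab the median was -0.13 to -0.031 in 8 settings (from 0.020), for cycling cells of Cd40-/- Control -0.13 to -0.010 in 4 (from 0.042), for cTEC-like cells of Cd40-/- Control 0.032 to 0.59 in 3 (from -0.099), the highest by the highest scaled marker score, for progenitor-like cells of Cd40-/- Control 0.005 and 0.025 (from -0.090), and for Ccl21a-high cells of Cd40-/- Control also -0.023 with each cell weighted equally and -0.036 without cells with a thymocyte marker UMI. Of the counts 164 stayed within 1.5 times the reported count and 27 did not. Counts under 5 under each setting were not compared. Of the single ratios and bounds of named members, 1045 stayed within their counting interval and 125 left it. The causes were not tested. The split of cycling cells and the removal of shared barcodes were chosen after seeing the data, and removing shared barcodes turned the Aire+ median of WT-RANKL-Ab to -0.10 and moved no median out of its counting interval and no count listed here by more than 1.5 times. Values in parentheses are the reported ones, and the comparison is with WT-Control unless another library is named. With 10 CPM added to each level, the median log2 ratio was -1.37 (from -2.10) for Ccl21a-high cells of Cd40-/- RANKL-Ab and -1.43 (from -1.87) for Ccl21a-high cells of Cd40-/- RANKL-Ab against Cd40-/- Control, and members at least 2-fold lower numbered 2 (from 5) for Aire+ cells of WT-RANKL-Ab, 3 (from 6) for cTEC-like cells of WT-RANKL-Ab, 8 (from 14) for cTEC-like cells of Cd40-/- RANKL-Ab, 4 (from 10) for cTEC-like cells of Cd40-/- RANKL-Ab against Cd40-/- Control, 2 (from 7) for tuft-like cells of WT-RANKL-Ab and 2 (from 5) for tuft-like cells of Cd40-/- Control. With TMM factors, the median log2 ratio was -0.15 (from 0.021) for Ccl21a-high cells of Cd40-/- Control and -0.32 (from -0.090) for progenitor-like cells of Cd40-/- Control, and members at least 2-fold lower numbered 5 (from 1) for Ccl21a-high cells of Cd40-/- Control and 9 (from 3) for progenitor-like cells of Cd40-/- Control. The summed level in WT-Control was 23640 in Ccl21a-high, 4117 in Aire+, 9158 in cTEC-like, 21670 in progenitor-like, 6898 in tuft-like and 5756 in cycling cells, in CPM. Without cells that held a thymocyte marker UMI, the median log2 ratio was -0.18 (from -0.44) for cTEC-like cells of WT-RANKL-Ab, and members at least 2-fold lower numbered 9 (from 14) for cTEC-like cells of Cd40-/- RANKL-Ab, and members at least 2-fold higher numbered 5 (from 1) for cTEC-like cells of Cd40-/- Control. The summed level in WT-Control was 22070 in Ccl21a-high, 9004 in cTEC-like, 19800 in progenitor-like, 6015 in tuft-like and 4627 in cycling cells, in CPM. With the class set by the highest scaled marker score, the median log2 ratio was 0.14 (from -0.44) for cTEC-like cells of WT-RANKL-Ab, -0.30 (from -0.64) for cTEC-like cells of Cd40-/- RANKL-Ab and 1.03 (from 1.51) for cycling cells of WT-RANKL-Ab, and members at least 2-fold lower numbered 6 (from 2) for Aire+ cells of Cd40-/- Control, 1 (from 6) for cTEC-like cells of WT-RANKL-Ab, 2 (from 7) for tuft-like cells of WT-RANKL-Ab and 3 (from 5) for tuft-like cells of Cd40-/- Control, and members at least 2-fold higher numbered 13 (from 1) for cTEC-like cells of Cd40-/- Control. The summed level in WT-Control was 21650 in Ccl21a-high, 3983 in Aire+, 5768 in cTEC-like, 20570 in progenitor-like, 7490 in tuft-like and 5410 in cycling cells, in CPM. In cycling cells that pass the Ccl21a-high gate, the median log2 ratio was -0.061 (from 1.51) for cycling cells of WT-RANKL-Ab, and members at least 2-fold higher numbered 0 (from 29) for cycling cells of WT-RANKL-Ab. With doubled gate thresholds, members at least 2-fold lower numbered 9 (from 5) for Aire+ cells of WT-RANKL-Ab, 6 (from 2) for Aire+ cells of Cd40-/- Control, 3 (from 6) for cTEC-like cells of WT-RANKL-Ab and 6 (from 3) for progenitor-like cells of Cd40-/- Control. The summed level in WT-Control was 22530 in Ccl21a-high, 3780 in Aire+, 7984 in cTEC-like, 20650 in progenitor-like and 5885 in tuft-like cells, in CPM. With gate thresholds divided by 2, members at least 2-fold lower numbered 3 (from 5) for Aire+ cells of WT-RANKL-Ab and 3 (from 5) for tuft-like cells of Cd40-/- Control. The summed level in WT-Control was 22170 in Ccl21a-high, 3425 in Aire+, 10030 in cTEC-like, 6919 in tuft-like and 5072 in cycling cells, in CPM. With a minimum of 100 UMIs per gene, members at least 2-fold lower numbered 8 (from 14) for cTEC-like cells of Cd40-/- RANKL-Ab, 6 (from 10) for cTEC-like cells of Cd40-/- RANKL-Ab against Cd40-/- Control, 3 (from 5) for tuft-like cells of Cd40-/- Control and 12 (from 21) for tuft-like cells of Cd40-/- RANKL-Ab against Cd40-/- Control. With each cell weighted equally, members at least 2-fold higher numbered 5 (from 1) for cTEC-like cells of Cd40-/- Control. The summed level in WT-Control was 22270 in Ccl21a-high, 3593 in Aire+, 8865 in cTEC-like, 19780 in progenitor-like, 5331 in tuft-like and 5736 in cycling cells, in CPM. Without the members that can share reads, the median log2 ratio was -1.93 (from -2.10) for Ccl21a-high cells of Cd40-/- RANKL-Ab. With totals that leave out Ccl21a, the summed level in WT-Control was 22530 in Ccl21a-high cells, in CPM. The libraries are 1 per condition, so depth limits only the counting error, which is widest for Oas2, Oasl1, Rsad2 and Mx1 in Ccl21a-high cells of Cd40-/- RANKL-Ab and for the tuft-like cells of that library.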
